A study of Mus musculus with 4 samples.

Results

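Astrocytes with abundant Gfap transcripts were described in 4 coronal mouse brain sections measured by MERFISH, an imaging assay that counts single RNA molecules of a fixed gene panel in place. A cell was taken as an astrocyte when at least 4 of Aqp4, Sox9, Gja1, F3, Cldn10, Plpp3 and Prodh were detected, when these 7 genes made up at least 8% of its transcripts, and when at most 2 of the neuroblast genes Dcx, Sox11, Sox4, Dlx6os1 and Ccnd2 were detected. An astrocyte was Gfap-rich when it held at least 4 Gfap transcripts and these made up at least 2% of its transcripts, and the other astrocytes are called Gfap-poor here. By this rule 3502 cells were Gfap-rich among 24201 astrocytes and 281824 kept cells.

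Sections Young 1 and Young 2 came from mice of 2 months and sections Aged 1 and Aged 2 from mice of 18 months, with no treatment named. The labels give neither genotype nor strain nor sex for a section. They do not tie the sections to separate animals, so p-values measure at most the spread between sections. The edgeR test used below for genes pools much of that spread over genes. Its p-values therefore do not measure each gene's own spread, and a gene set by 1 section can pass. The tissue is named as a bilateral slice of the striatum, but each section also held cortex, corpus callosum, ventricular wall and brain surface, and Gfap-rich astrocytes were taken from all of it. The panel had 383 genes. Kept cells numbered 68011 to 74624 a section and held a median of 215 (Aged 1) to 400 (Young 1) transcripts. No cell barcode was shared between sections.

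Gfap encodes glial fibrillary acidic protein, an intermediate filament of astrocytes. Astrocytes of white matter and those of the glia limitans, the sheet of astrocyte processes under the pia, are known to hold much of it, whereas most grey matter astrocytes of striatum and cortex hold little. Gfap is also known for its rise in reactive astrocytes and for its presence in the stem cells of the ventricular wall. The question was where Gfap-rich astrocytes lay, what else they transcribed, and what differed between 2 and 18 months.

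The members were chosen by their Gfap counts, so their Gfap level is a description. The median member held 14 Gfap transcripts in Young 1, 13 in Young 2, 11 in Aged 1 and 11 in Aged 2, and the highest 218, 220, 222 and 234. Gfap was a median of 5.31%, 5.09%, 5.61% and 4.68% of a member's transcripts. Gfap-poor astrocytes had a median of 0 Gfap transcripts in every section, and 53.5% to 63.9% of them had none. The threshold of 2% did not fall in a gap of the distribution. Members between 2% and 2.5% numbered 110, 115, 80 and 129, and astrocytes between 1.5% and 2% numbered 119, 108, 80 and 118. A further 125, 131, 138 and 137 astrocytes reached 2% with fewer than 4 Gfap transcripts and were left out by the rule.

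The astrocyte genes of the rule were checked against the other cells. At least 1 transcript of Aqp4, the water channel of astrocyte endfeet, was found in 92.8% to 97.3% of members, against 21.4% to 27.5% of the kept cells outside the class. Gja1, a gap junction protein, was found in 99.4% to 100% against 30.5% to 35.0%. The transcription factor Sox9 was found in 77.4% to 87.6% against 15.4% to 23.2%, and F3, tissue factor, in 83.0% to 86.8% against 13.5% to 19.9%. Cldn10 was the exception, with 13.7% to 16.0% of members against 7.52% to 15.1% of the other cells. Per 10000 transcripts of the panel, Aqp4 stood at 343, 411, 303 and 276 in members of Young 1, Young 2, Aged 1 and Aged 2, and at 146, 170, 140 and 133 in Gfap-poor astrocytes. Plpp3, a lipid phosphatase, stood at 356, 309, 276 and 344 in members and at 580, 543, 460 and 553 in Gfap-poor astrocytes. On this scale Sox9, Gja1, F3, Cldn10 and Prodh were likewise lower in members of every section, and Aqp4 alone was higher. These totals include Gfap, which the rule sets high in members, and this lowers the level of every other gene there. Gja1 stood at 583, 575, 641 and 567 in members against 625, 636, 680 and 598. A gap that small cannot be told apart from the effect of Gfap in the total.

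Members were the larger cells on these images, but the rule's minimum of 4 Gfap transcripts favours cells with more transcripts. The test of volume is thus not independent of the rule, and the rule's part in volume and depth was not tested. Their median segmented volume was 672, 735, 801 and 791 µm3 against 542, 503, 634 and 553 µm3 for Gfap-poor astrocytes. The difference averaged 192 µm3 ± 52.0 (SD over 4 sections), was positive in 4 of 4, and gave p = 0.125 in the two-sided exact sign-flip permutation test, the smallest that 4 sections allow. Their median depth was 289, 265, 206 and 246 transcripts against 255, 205, 180 and 208. Mixed cells, which also showed at least 3 markers of another cell type, made up 55.6%, 54.5%, 46.9% and 56.8% of members and 56.9%, 50.7%, 49.0% and 53.5% of Gfap-poor astrocytes.

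**Figure D1:**
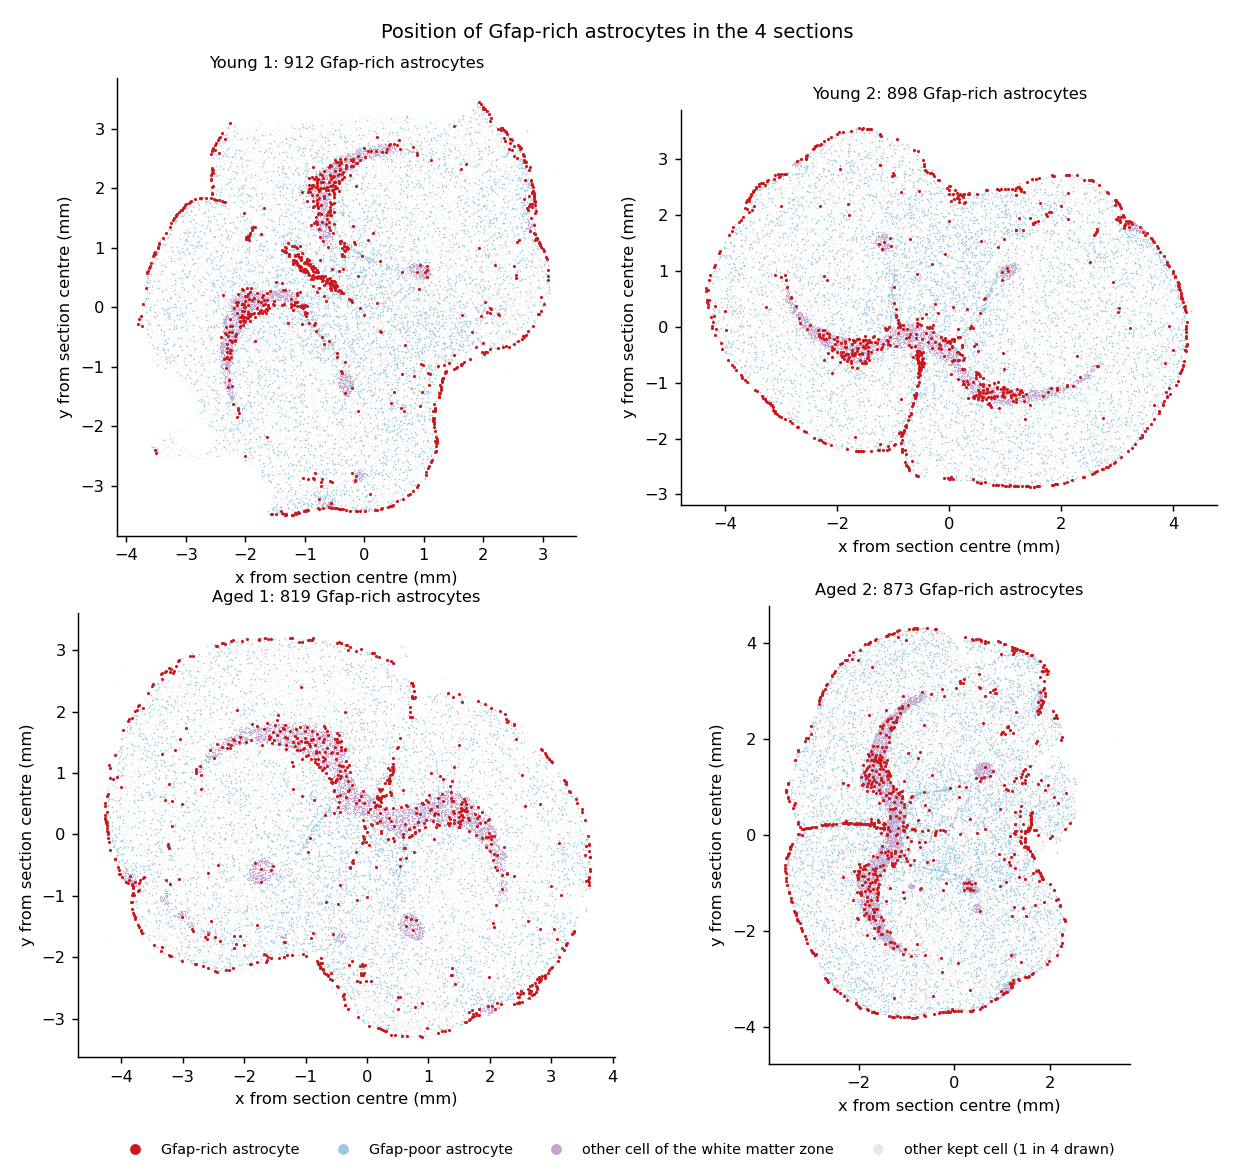
Position of cells in each section, in mm from the section centre on both axes. Red points are Gfap-rich astrocytes (912, 898, 819 and 873 in Young 1, Young 2, Aged 1 and Aged 2), light blue points Gfap-poor astrocytes, purple points other cells of the white matter zone and grey points 1 in 4 of the other cells, and the red points line the outer rim, the midline and the purple tracts.

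Gfap-rich astrocytes lay along the brain surface and in white matter more often than Gfap-poor ones. Many also lay in other grey matter, and few in the striatum. Each astrocyte was placed in a zone from its neighbours within 100 µm and its distance from the outer tissue edge, neither of which the rule used. White matter was where oligodendrocyte-like cells were at least 40% of the neighbours, and the ventricular wall where neuroblast-like and ependymal-like cells were at least 15%. The surface was the outer 75 µm of tissue, torn and cut edges included. The striatum was where at least 40% of the neighbours were medium spiny neuron-like, and other grey matter was the rest, cortex, septum and the midline fissure included.

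In white matter, 59.8%, 62.5%, 62.7% and 54.9% of the astrocytes of Young 1, Young 2, Aged 1 and Aged 2 were Gfap-rich. At the surface the shares were 46.6%, 53.2%, 49.0% and 37.3%. In the striatum they were 1.14%, 1.45%, 1.42% and 2.39%, which is 16, 17, 16 and 27 cells. The order white matter, surface, other grey matter, striatum was the same in all 4 sections. Other grey matter had 10.02%, 6.75%, 7.82% and 7.83%. The ventricular wall held 64 and 54 members at 2 months and 9 in each aged section. Neuroblast-like cells define that zone and numbered 574 and 646 at 2 months against 145 and 206 at 18 months, so the wall is not compared by age.

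The surface held 30.8%, 41.4%, 35.9% and 31.8% of all members but 6.23%, 6.18%, 6.44% and 8.54% of Gfap-poor astrocytes. White matter held 22.7%, 22.8%, 28.1% and 28.2% of members but 2.69%, 2.32%, 2.88% and 3.68% of Gfap-poor astrocytes. Other grey matter held 37.7%, 27.8%, 33.0% and 35.9% of members and 59.8%, 65.3%, 66.9% and 67.2% of Gfap-poor astrocytes. The difference of the shares was 28.1 percentage points ± 5.43 (SD, n = 4 sections) at the surface and 22.6 ± 2.67 in white matter. It was -20.9 ± 3.33 in the striatum and -31.2 ± 6.58 in other grey matter. Each difference had the same sign in 4 of 4 sections, with p = 0.125 in the two-sided exact sign-flip permutation test, the smallest it can give with 4 sections.

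**Figure D2:**
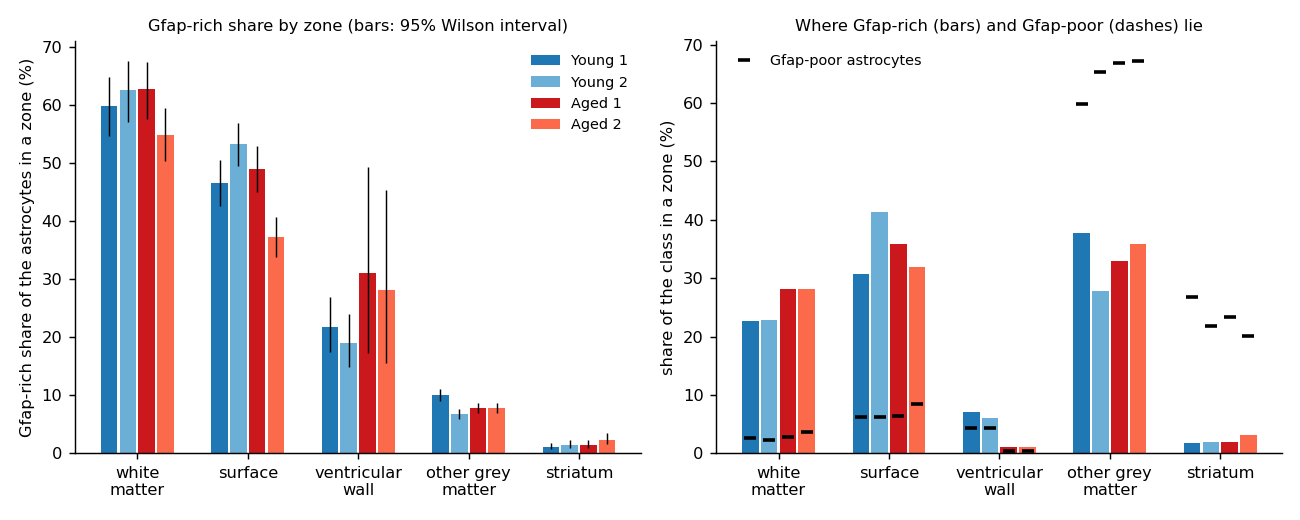
Left, the Gfap-rich share of astrocytes (%) in each zone and section, with 95% Wilson intervals that cover counting error only. Right, the share of Gfap-rich (bars) and Gfap-poor (dashes) astrocytes that lay in each zone (%), where the bars stand above the dashes for white matter and surface and below them for other grey matter and striatum.

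The band at the surface was thin. Within 25 µm of the outer edge, white matter and ventricular wall left out, 64.1%, 73.1%, 66.8% and 57.1% of astrocytes were Gfap-rich, and between 25 and 50 µm only 16.1%, 21.6%, 35.1% and 13.2%. From 150 to 300 µm inside the edge the shares were 4.1%, 4.4%, 2.8% and 6.6%. Away from the edge, the share was higher where oligodendrocyte-like cells were at least 20% of the neighbours. It was 7.67%, 4.46%, 4.43% and 5.73% where these were under 10%, 3.83%, 3.81%, 4.92% and 5.66% at 10% to 20%, 9.01% to 11.5% at 20% to 30%, 19.6% to 26.8% at 30% to 40%, and 65.9% to 74.6% at 60% or more. Members were thus found also outside the white matter threshold, on the flanks of the tracts.

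Members of other grey matter lay near these structures more often than the Gfap-poor astrocytes of that zone, but many lay near neither. White matter cells were within 100 µm of 20.3%, 29.6%, 35.2% and 22.0% of them, against 5.99% to 9.33% of the Gfap-poor astrocytes of that zone. Cells with at least 3 meningeal fibroblast markers were within 100 µm of 36.3%, 29.2%, 14.4% and 17.9%, against 4.27% to 6.34%. Near neither of these, and over 150 µm from the edge, lay 41.6%, 44.4%, 44.1% and 57.2% of the members, against 80.9% to 83.7%. The map shows members along the midline fissure, which the distance to the outer edge does not reach. It does not mark which members lay near neither structure, and those at the fissure were not counted.

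**Figure D3:**
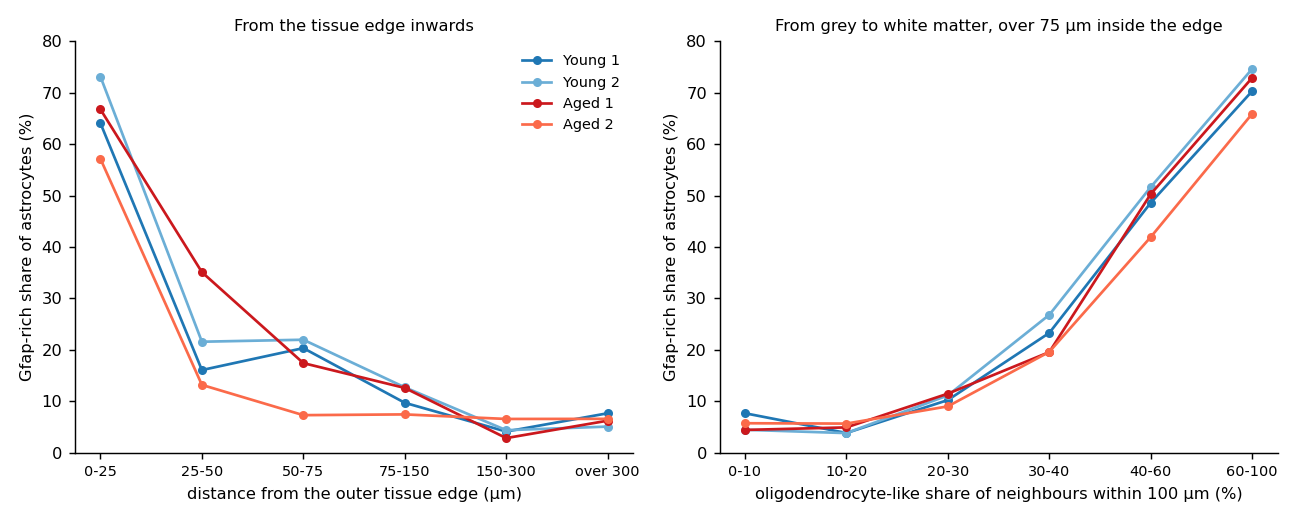
Gfap-rich share of astrocytes (%) in each section (lines) against distance from the outer tissue edge in µm (left) and, for astrocytes over 75 µm inside the edge, against the oligodendrocyte-like share of their neighbours in % (right). The share was 57.1% to 73.1% in the outermost 25 µm and climbed to 65.9% to 74.6% where at least 60% of the neighbours were oligodendrocyte-like.

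The share of astrocytes that were Gfap-rich overlapped between 2 and 18 months. It was 15.005% and 14.5% at 2 months and 14.7% and 13.7% at 18 months, or 14.8% ± 0.357 against 14.2% ± 0.683 (SD, n = 2). The two-sided exact permutation test gave p = 0.667, and the smallest it can give with 2 sections against 2 is 0.333. With each astrocyte thinned to 100 transcripts, shallower ones left out, the shares were 11.3%, 11.4%, 11.6% and 9.92%.

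Density, in members per mm2 of a zone, was lower in the aged sections in white matter, though members there were no fewer. It was 149 and 119 in Young 1 and Young 2 and 92.0 and 103 in Aged 1 and Aged 2, or 134 ± 20.9 against 97.3 ± 7.50 (exact permutation p = 0.333, the smallest possible). White matter members numbered 207 and 205 in the young and 230 and 246 in the aged sections. The area counted as white matter was 1.39 and 1.72 mm2 in the young and 2.5 and 2.40 mm2 in the aged sections. The lower density thus came with a larger area and not with fewer members. Oligodendrocyte-like cells, which define this zone, numbered 6990 and 7068 in the young and 9199 and 9719 in the aged sections. What enlarged the area, and whether the zone covered the same tissue at both ages, was not tested. The difference was -36.8 members per mm2, and -14.2 without cells that carried markers of another type. At the surface the densities overlapped, with 117 and 159 against 123 and 103 (exact permutation p = 0.667). In the striatum they were 1.46 and 1.60 against 1.69 and 2.89, without overlap (exact permutation p = 0.333), and rested on 16 to 27 cells a section.

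Gfap itself, per 10000 transcripts of the panel, was higher in surface members than in white matter members of every section. It stood at 985, 865, 1019 and 703 at the surface of Young 1, Young 2, Aged 1 and Aged 2, at 530, 493, 655 and 547 in white matter, and at 621, 531, 533 and 648 in other grey matter. In Gfap-poor astrocytes of the whole section it stood at 35.8, 33.5, 32.5 and 37.0. Over all members it was 718 and 653 in the young and 745 and 630 in the aged sections, and the ages overlapped. In white matter both aged sections stood above both young ones. These Gfap levels are given with no test, since the rule used the gene.

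Gfap-rich astrocytes differed from Gfap-poor ones in most of the panel. Their transcripts were summed per section, and the 2 classes were compared within sections with the quasi-likelihood test of edgeR and an adjusted p (Benjamini-Hochberg) of 0.05 as the threshold. Levels from here on are transcripts per 10000 transcripts of the 370 genes that the rule did not use. Of 368 genes tested, 133 (36.1%) were higher and 118 (32.1%) lower in members. These shares are the background against which the gene lists are read. The fold changes average over zones that the classes occupy unequally, and values within a zone follow.

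Genes known from reactive astrocytes were mostly higher over the whole sections, but fewer of them passed within white matter or grey matter. C4b, which encodes complement component C4, stood at 67.9, 66.6, 113 and 79.8 in members of Young 1, Young 2, Aged 1 and Aged 2 against 16.7, 13.3, 27.2 and 22.8 in Gfap-poor astrocytes (log2 fold change 2.03, SE 0.082, edgeR adjusted p = 2.63e-08). Vim, the filament vimentin, stood at 72.5, 85.9, 96.4 and 79.7 against 16.6, 21.6, 23.2 and 24.2 (1.95, SE 0.078). For both genes the lowest member value was above the highest Gfap-poor value. Serpina3n, a protease inhibitor, had a log2 fold change of 2.10, Cp, ceruloplasmin, 1.94, Cryab, a small heat shock protein, 0.80, Stat3, a transcription factor of cytokine signalling, 0.59, and the filament synemin (Synm) 0.33. S100b, a calcium-binding protein, was lower (-0.30). The interferon-induced chemokine Cxcl10 passed with 1.79 and was higher in 3 of 4 sections, at 3.99 per 10000 in Young 2 and 0.448 to 0.922 in the others. Of the 14 genes of this list 9 were higher, 1 lower and 4 did not pass, with a median log2 fold change of 0.70 against 0.07 over all genes tested. Among those that did not pass, complement C3 stood at 2.15, 1.22, 4.01 and 2.77 in members against 2.04, 1.45, 3.62 and 5.76, and S100a6 at 1.59 to 2.82 against 1.58 to 1.94. Within white matter 2 genes of the list were higher and 0 lower of 12 tested. Within grey matter (striatum and other grey matter) 6 were higher and 0 lower of 14, and at the surface 8 were higher and 1 lower of 13.

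Genes linked to quiescent and stem-like astrocytes split. Thbs4, which encodes the secreted matrix protein thrombospondin-4, stood at 99.9, 71.3, 102 and 52.3 in members against 12.9, 8.96, 8.45 and 7.38 (log2 fold change 3.07, SE 0.121, edgeR adjusted p = 2.63e-08). Id3, an inhibitor of bHLH transcription factors, stood at 74.3, 65.9, 46.5 and 65.9 against 27.4, 21.6, 18.5 and 27.6 (1.39). Fabp7, a fatty acid carrier of radial glia, stood at 13.3, 22.0, 9.69 and 11.0 against 4.98, 8.29, 3.95 and 4.63 (1.33). Hopx had 0.54 and Id4 0.27. Lower were Hes5, a Notch target (-1.16), the Wnt receptor Fzd2 (-0.94), the growth factor receptor Egfr (-0.55) and the adhesion molecule Vcam1 (-0.50). In all 5 of 11 were higher and 4 lower, with a median of 0.10. Within white matter 2 were higher and 0 lower, within grey matter 7 higher and 4 lower, and at the surface 3 higher and 7 lower.

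Genes of the homeostatic functions of astrocytes, such as transport and metabolism, were more often lower over the whole sections, but not within grey matter. The GABA transporter Slc6a11 stood at 251, 216, 282 and 264 in members against 486, 461, 434 and 403 (log2 fold change -0.84, SE 0.089). Crym, which encodes the thyroid hormone binding µ-crystallin and marks striatal astrocytes, stood at 4.39, 1.07, 1.94 and 4.40 against 30.2, 23.2, 21.2 and 29.6 (-3.21, SE 0.220, edgeR adjusted p = 6.30e-07). Members held little Crym in every section. The transporter Slco1c1 had -1.30, the phosphatase Ptprz1 -0.63 and the deiodinase Dio2 -0.62. Higher were the cystine transporter Slc7a11 (1.09), clusterin (Clu, 0.32) and apolipoprotein E (Apoe, 0.26). Of 21 genes 7 were higher and 10 lower, with a median of -0.21. Within grey matter (striatum and other grey matter) 7 were higher and 4 lower, with a median of 0.02. Within white matter 0 were higher and 1 lower of 19 tested, and at the surface 4 were higher and 13 lower.

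Of 20 MHC and interferon genes 8 were higher and 2 lower, with a median of 0.23. B2m, the invariant chain of MHC class I, stood at 19.6, 31.7, 31.4 and 26.4 against 10.2, 12.1, 16.1 and 12.5 (log2 fold change 1.08). Cd74, the MHC class II invariant chain, had 2.13, but at 1.90 to 6.91 per 10000 it was scarce.

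Beyond Thbs4 and Crym, further genes had wide gaps. Aldh1a2, a retinaldehyde dehydrogenase that makes retinoic acid, stood at 35.2, 51.4, 34.2 and 38.6 in members against 2.25, 2.21, 1.72 and 2.36 (18.3-fold, edgeR adjusted p = 3.68e-09). Aldehyde oxidase Aox3 had a log2 fold change of 3.18, matrix Gla protein Mgp 2.74, the ion pump regulator Fxyd5 2.48, the growth factor binding protein Igfbp5 2.41, fibronectin Fn1 2.26, the scaffold protein Ahnak 2.22, the chemokine Cxcl12 2.16 and the protease inhibitor A2m 2.08. On the lower side stood the dopamine receptor Drd2 (-2.80), Rgs4 (-2.29), Arpp21 (-2.29), Penk (-2.13) and Pde10a (-1.90).

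Markers of other cell types moved with these classes. Summed over 7 oligodendrocyte markers members held 213 to 254 per 10000 against 129 to 153 in Gfap-poor astrocytes, and 7 of 7 were called higher. Summed over 9 medium spiny neuron markers they held 48.1 to 50.7 against 150 to 167, with 8 of 9 lower, and over 7 neuron markers 106 to 163 against 266 to 326, with 6 of 7 lower. The 5 meningeal fibroblast markers summed to 141 to 230 against 34.1 to 44.9, with 4 higher, and these 5 include Aldh1a2, Mgp and Igfbp5. Of the other fibroblast markers Itih5 was higher (log2 fold change 0.62) and Slc16a4 stood at 1.17 to 1.90 against 1.30 to 1.58. Of 10 microglia markers 5 were higher, with sums of 65.1 to 93.1 against 56.2 to 79.1. The part of these transcripts in the differences was not tested.

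Within white matter the classes were compared in the same zone, but members lay more often where oligodendrocyte-like cells were densest. Where oligodendrocyte-like cells were at least 60% of the neighbours, there were 109, 106, 140 and 147 members and 46, 36, 52 and 76 Gfap-poor astrocytes, and from 40% to 60% there were 87, 93, 86 and 91 against 92, 87, 85 and 126. Of 271 genes tested 12 passed (4.43%), 8 higher and 4 lower, and all 12 had been called in the same direction over the whole sections. A2m stood at 13.4, 9.21, 13.1 and 13.4 against 5.13, 3.20, 4.53 and 5.44 (log2 fold change 1.51, SE 0.185). C4b stood at 73.4, 78.8, 179 and 129 against 39.9, 29.7, 101 and 80.4 (1.02, SE 0.125), higher in members of each section. Igfbp5 stood at 211, 203, 145 and 160 against 126, 117, 83.1 and 104 (0.83, SE 0.088). The remaining higher genes were Serpina3n (1.18), Ahnak (0.75), the glutamine transporter Slc38a1 (0.75), Id3 (0.72) and Thbs4 (0.62). Lower were Crym (-2.05), Elmod1 (-1.54), Unc80 (-1.02) and Cplx2 (-0.94), and Cplx2 encodes a protein of synaptic vesicle release. Vim stood at 61.2, 68.7, 123 and 86.9 against 39.9, 53.1, 52.4 and 77.8 and missed the threshold (edgeR adjusted p = 0.0629). No oligodendrocyte marker of the 7 was called within white matter. The Gfap-poor astrocytes there numbered 139, 123, 137 and 202, and the count of called genes was 3 without Aged 1 and 4 without Young 2.

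In grey matter, striatum and other grey matter together, 170 of 366 genes passed (46.4%), 85 in each direction. Thbs4 stood at 44.0, 40.6, 41.9 and 22.1 in members against 6.24, 3.86, 3.90 and 3.17 (log2 fold change 3.14). Serpina3n stood at 15.5, 12.8, 11.4 and 19.3 against 2.67, 2.60, 1.54 and 2.25 (2.74, SE 0.174). Vim had 2.29, C4b 2.24, Id3 1.62, Fabp7 1.39 and Hopx 1.05. Slc6a11, at 383 to 464 against 424 to 518, did not pass there (-0.09, edgeR adjusted p = 0.458). All 7 neuron markers were called lower, and 161 of the 170 genes had been called in the same direction over the whole sections.

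At the surface 199 of 333 genes passed (59.8%), 104 higher and 95 lower, of which 169 had been called the same way over the whole sections and 6 the opposite way. Aldh1a2 stood at 88.0, 99.3, 86.7 and 87.6 in members against 15.9, 10.7, 7.89 and 8.61 in Gfap-poor astrocytes of the same outer 75 µm (log2 fold change 3.15, SE 0.154). Ahnak stood at 341, 332, 329 and 413 against 113, 80.6, 87.4 and 94.2 (1.99). C4b had 2.09, Serpina3n 2.16 and Vim 1.32. Clu, higher in members over the whole sections, was lower at the surface, at 459, 307, 399 and 265 against 869, 692, 591 and 582 (-0.88, SE 0.099). Hopx likewise stood at 10.01, 19.1, 8.56 and 11.2 against 15.9, 32.8, 20.4 and 24.2 (-0.86). Apoe had -0.19 there and did not pass (edgeR adjusted p = 0.0569). Of these members 239 of 281, 313 of 372, 225 of 294 and 244 of 278 lay in the outermost 25 µm, against 134 of 322, 115 of 327, 112 of 306 and 183 of 468 Gfap-poor astrocytes, so depth within the zone moved with the class. Among the 5 fibroblast markers 4 were higher in surface members.

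Gfap-rich astrocytes of the surface were then compared with those of white matter, a comparison added after the data were seen. Of 312 genes tested 104 (33.3%) were higher at the surface and 81 (26.0%) higher in white matter. Leaving out cells with 3 markers of another type lowered the total from 185 to 103 genes.

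The members of these zones were parted by Thbs4 and Aldh1a2. Thbs4 stood at 268, 216, 300 and 141 in white matter members of Young 1, Young 2, Aged 1 and Aged 2 and at 7.92, 4.86, 10.3 and 8.60 in surface members (log2 fold change -5.02, SE 0.195, edgeR adjusted p = 3.31e-20). Aldh1a2 stood at 5.21, 3.59, 1.57 and 1.10 in white matter and at 88.0, 99.3, 86.7 and 87.6 at the surface (4.86, SE 0.238, edgeR adjusted p = 1.05e-17). The groups were far apart in every section, in opposite directions for the 2 genes. In GRCm38, by the GENCODE annotation, Thbs4 lies on chromosome 13 at 92751590 to 92794818 on the minus strand and Aldh1a2 on chromosome 9 at 71215789 to 71296243 on the plus strand. Gfap lies on chromosome 11 at 102887336 to 102900912 on the minus strand.

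Further genes were higher in surface members. Fn1, fibronectin, stood at 111, 118, 64.9 and 106 there against 7.02, 5.39, 2.35 and 4.78 in white matter (log2 fold change 4.22). Mgp stood at 52.0, 40.04, 19.4 and 59.5 against 2.81, 2.69, 1.57 and 2.02 (4.08). Cxcl12 stood at 84.4, 87.5, 59.9 and 86.3 against 9.82, 9.43, 8.36 and 7.90 (3.01). For each of these the lowest surface value was above the highest white matter value. Aox3 had 3.57, Cp 2.69, Dab2, an endocytic adaptor, 2.80, Fabp7 2.35 and Ahnak 1.46. The neuron marker Snhg11 had 3.41, from 24.6 to 60.5 at the surface against 1.12 to 5.21.

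In white matter members stood the alarmin cytokine Il33 and clusterin. Il33 stood at 44.5, 49.2, 83.1 and 76.6 there against 3.75, 4.05, 11.4 and 11.6 at the surface (log2 fold change -3.30, SE 0.186). Clu stood at 1273, 1034, 1403 and 1255 against 459, 307, 399 and 265 (-1.97). C4b was also higher in white matter (-1.26), as were Igfbp5 (-1.19), Hopx (-0.88) and Cryab (-0.84). Vim (-0.15), Synm (0.16), Serpina3n (-0.09) and Slc6a11 (0.14) did not pass, with SE of 0.155, 0.219, 0.291 and 0.145, which leaves differences of that size undetected. Of the 14 genes of the reactive list 3 were higher at the surface, 3 higher in white matter and 7 of the 13 tested did not pass.

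Markers of other cell types moved along. The 7 oligodendrocyte markers, Mag, Opalin and Mobp among them, summed to 499 to 723 per 10000 in white matter members and to 54.8 to 91.4 in surface members, with 7 of 7 called. The 5 fibroblast markers summed to 162 to 240 in white matter, most of it Igfbp5, and to 188 to 296 at the surface. Itih5 stood at 21.1 to 40.6 at the surface against 10.6 to 19.0 in white matter. None of these markers was at 0 in any section of surface members. The part of oligodendrocyte and meningeal RNA in the difference was not tested.

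**Figure D4:**
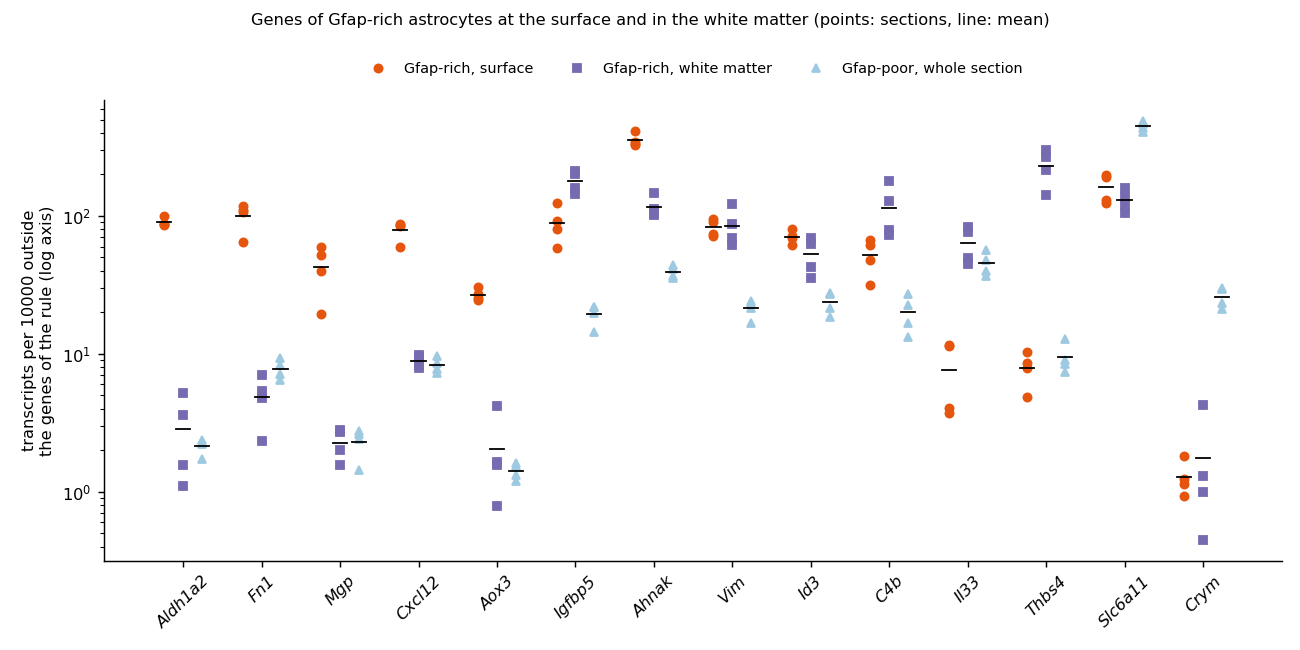
Transcripts per 10000 outside the rule's genes (log axis) of 14 genes in Gfap-rich astrocytes of the surface (circles) and white matter (squares) and in Gfap-poor astrocytes of the whole section (triangles), 1 point a section with the mean as a line. Aldh1a2 to Aox3 stand high in surface members alone, Thbs4 and Il33 stand higher in white matter than in surface members, and Crym is low in both.

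Between 2 and 18 months few genes of Gfap-rich astrocytes passed the test. Of 358 genes tested over all members 4 passed (1.12%), 2 higher and 2 lower in the aged sections, and 40 had an unadjusted p under 0.05.

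Il33, a cytokine released by damaged cells, rose in aged members. It stood at 17.3 and 20.2 in Young 1 and Young 2 and at 39.9 and 37.0 in Aged 1 and Aged 2 (2.07-fold, log2 fold change 1.05, SE 0.235, edgeR adjusted p = 0.00164). Higher Il33 in the aged sections was not confined to members. Gfap-poor astrocytes of whole sections held 36.7 and 40.02 in Young 1 and Young 2 and 56.9 and 48.1 in Aged 1 and Aged 2. These levels were above those of the members in every section, and their own age change was not tested. The difference of the age change between the classes did not pass and is given with the interaction of age and class below. In members the ages did not overlap in any of the zones. In white matter Il33 went from 44.5 and 49.2 to 83.1 and 76.6 (0.83, edgeR adjusted p = 0.0228). In surface members it was 3.75 and 4.05 against 11.4 and 11.6 (1.51, adjusted p = 0.211), and in other grey matter 12.4 and 18.9 against 36.8 and 26.9 (0.97, adjusted p = 0.0895). The direction was the same in each zone, and it passed within white matter only. Over all members the value stayed between 0.91 and 1.17 when each section was left out, and the call was lost without Young 1 (adjusted p = 0.06) and without Aged 1 (0.182). It was also lost without mixed cells (0.0619), in members with no neuroblast marker (0.145), without a filter on low counts (0.154) and with the rule's genes left out of the totals (0.0577). The call within white matter was lost by limma (0.0578), without a filter (0.181), without mixed cells (0.25), without Young 1 (0.675) and without Young 2 (0.534), with a positive value in each.

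Tnr, which encodes the matrix protein tenascin-R, fell. It went from 13.2 and 9.68 to 5.12 and 5.58 (log2 fold change -1.08, SE 0.288, edgeR adjusted p = 0.0227). It passed in white matter, at 14.2 and 13.02 against 6.53 and 4.04 (-1.33, adjusted p = 0.0325), and in other grey matter, at 17.8 and 8.32 against 4.27 and 5.25 (-1.53, adjusted p = 0.0212). Surface members had 9.31 and 9.49 against 5.14 and 7.72, which did not pass. Tnr was lower in the aged sections of each zone, and Young 1 stood highest in 2 of the 3. Over all members the value was -0.87 to -1.29 when each section was left out, and the call held only without Young 2 (adjusted p = 0.00305), being lost without Young 1 (0.193), Aged 1 (0.285) or Aged 2 (0.112). DESeq2 (0.106) and limma (0.079) did not call it. In other grey matter the call was lost without any 1 section (0.0693 to 0.993), without mixed cells (0.0612), by DESeq2 (0.171) and by limma (0.059). In white matter it was lost without mixed cells (0.228), without a filter (0.181), by DESeq2 (0.164) and without Young 1 (0.498), Young 2 (0.161) or Aged 2 (0.151).

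Meg3, a long non-coding RNA of neurons, and Cxcl10 each rested on 1 section. Meg3 stood at 4.62 and 4.77 in the young sections and at 25.5 in Aged 1 and 7.63 in Aged 2 (log2 fold change 1.83, edgeR adjusted p = 9.77e-08). Meg3 did not pass by DESeq2 (adjusted p = 0.528) or by edgeR without a filter on low counts (0.309). Its value was 0.68 without Aged 1, -0.063 in members with no neuroblast marker and -0.90 in members without markers of another type. The 7 neuron markers, Meg3 among them, summed to 113 and 106 in the young and 163 and 136 in the aged sections, and the part of neuronal RNA was not tested. In white matter members Meg3 was at 0.898 to 2.76 in all sections. Cxcl10 stood at 0.448 and 3.99 in the young and 0.484 and 0.922 in the aged sections (-1.59, adjusted p = 0.0415). It is outside the rule for naming genes and was named after its value was seen, since the count was small. The ages overlapped for Cxcl10 and not for Meg3.

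Few genes of the reactive list passed by age over all members, which does not show that the others were unchanged. In simulated data of the real depths edgeR called 37.5% of the genes changed 1.5-fold between the ages. The simulation gave every gene the same dispersion, 0.0308, so it does not measure recovery for genes that vary more between sections. Of 14 genes 0 were higher, and 1, Cxcl10, was lower, by edgeR, with a median log2 fold change of 0.16 against 0.02 over all genes tested. C4b stood at 67.9 and 66.6 in the young and at 113 and 79.8 in the aged sections (0.54, adjusted p = 0.198), without overlap. Vim stood at 72.5 and 85.9 against 96.4 and 79.7 (0.17). Serpina3n stood at 9.998 and 7.73 against 8.30 and 12.3 (0.24). None of the 21 homeostatic and none of the 20 MHC and interferon genes passed. Aqp4, which the rule used and which was not tested, stood at 343 and 411 against 303 and 276, without overlap.

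White matter members differed with age in 8 of 263 genes tested (3.04%). The zone was larger and oligodendrocyte-like cells more numerous in the aged sections, and whether it covered the same tissue at both ages was not tested. C4b rose, from 73.4 and 78.8 in Young 1 and Young 2 to 179 and 129 in Aged 1 and Aged 2 (2.11-fold, log2 fold change 1.08, SE 0.215, edgeR adjusted p = 0.000185). Higher C4b in the aged sections was not confined to members. Gfap-poor astrocytes of white matter, with values given above, also held more C4b in both aged sections. Over whole sections Gfap-poor astrocytes held 16.7 and 13.3 in the young and 27.2 and 22.8 in the aged sections. Vim rose from 61.2 and 68.7 to 123 and 86.9 (0.75, SE 0.221, adjusted p = 0.0313), a call that DESeq2 (0.132) and limma (0.0738) did not make. Aged 1 was the highest section for C4b and for Vim in these members. Tm4sf1, a membrane protein of endothelial and other cells, stood at 3.21 and 8.76 against 23.5 and 12.1 (1.64, adjusted p = 0.00221). Rasip1, an endothelial gene at 0.602 to 4.18 per 10000, also passed and was named after its values were seen. Marcks, an actin-binding protein of the cell membrane, fell from 56.1 and 70.7 to 36.6 and 34.7 (-0.77), and Tspan2, a tetraspanin of oligodendrocytes, from 145 and 193 to 96.4 and 98.5 (-0.73). Id3, at 69.6 and 63.1 against 35.5 and 42.6, did not pass (-0.70, adjusted p = 0.0672). Thbs4, the leading gene of these members, stood at 268 and 216 against 300 and 141 and did not pass.

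These calls depended on single sections. C4b kept a log2 fold change of 0.79 to 1.32 when each section was left out, but its adjusted p was 0.149 without Young 1 and 0.161 without Young 2. Without members that carried 3 markers of another type its value was 1.04 (0.155), and 0 genes passed by edgeR. The number of genes called was 1 without Young 1, 1 without Young 2 and 23 without Aged 2. The oligodendrocyte markers summed to 704 and 723 in the young and to 499 and 597 in the aged white matter members, the microglia markers to 68.8 and 48.5 against 101 and 69.6, and the endothelial markers to 98.0 and 90.9 against 125 and 125. The endothelial markers include Slco1c1, also on the homeostatic astrocyte list. Over all members Slco1c1 stood at 65.8 and 58.9 in the young and 85.0 and 63.4 in the aged sections, of endothelial sums of 105, 108, 131 and 109. The part of these 3 marker lists in the change was not tested.

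Members of other grey matter differed in 3 of 310 genes (0.968%), Meg3, Tnr and Hopx. Hopx, a homeodomain protein of quiescent stem cells and astrocytes, fell from 36.0 and 36.6 in the young to 16.7 and 18.5 in the aged sections (log2 fold change -1.10, SE 0.308, edgeR adjusted p = 0.0292). The 2 values of each age lay close together. In white matter Hopx stood at 15.2 and 30.8 against 15.9 and 19.1 and at the surface at 10.01 and 19.1 against 8.56 and 11.2, with overlap in both. Without any 1 section the adjusted p of Hopx in other grey matter was over 0.05, from 0.0651 to 0.993, with values of -1.04 to -1.18.

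At the surface 0 of 311 genes passed by edgeR (0%), 16 had an unadjusted p under 0.05, and DESeq2 and limma called 0. C4b stood at 61.4 and 47.7 in the young and at 66.8 and 31.4 in the aged sections, and Vim at 72.0 and 90.3 against 94.7 and 74.2. Aldh1a2 stood at 88.0 and 99.3 against 86.7 and 87.6.

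**Figure D5:**
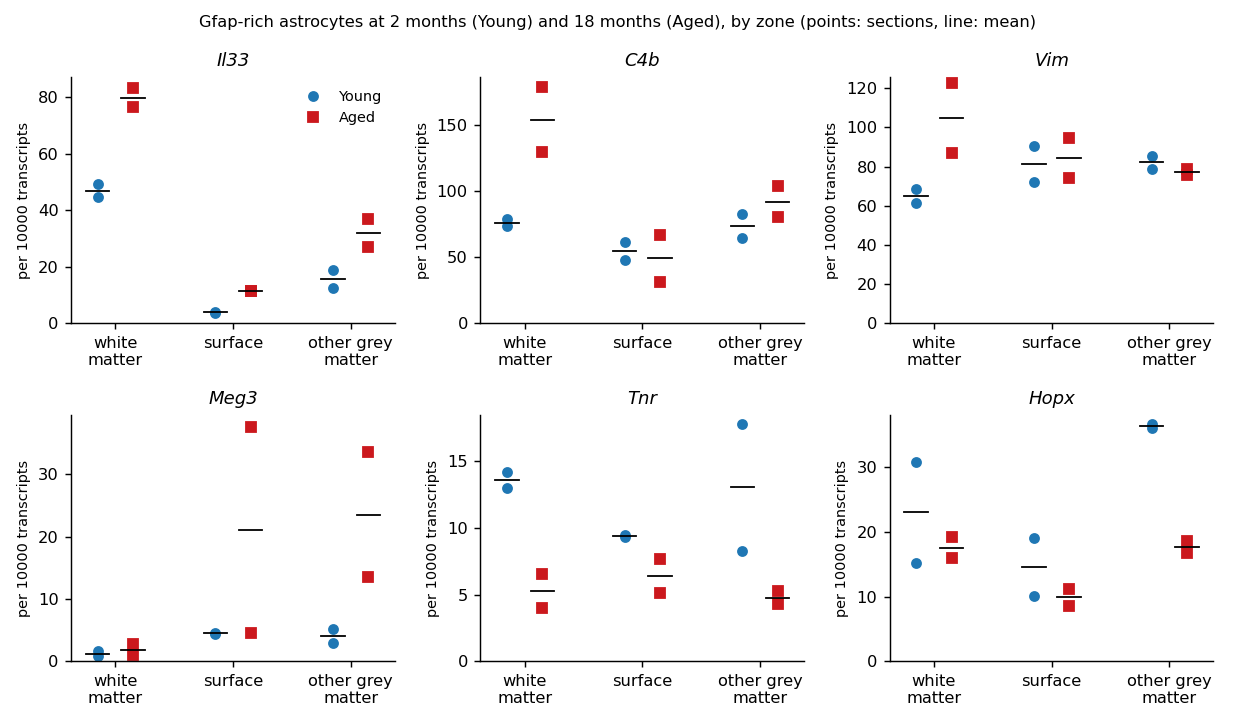
Level of 6 genes, in transcripts per 10000 outside the rule's genes, in Gfap-rich astrocytes of white matter, surface and other grey matter at 2 months (circles) and 18 months (squares), 1 point a section with the mean as a line. Il33 stands higher in the aged sections of all 3 zones, C4b and Vim stand apart by age in white matter, Hopx in other grey matter, and Meg3 is high in Aged 1.

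The age change of C4b differed between zones. The difference of the age change between surface and white matter members was tested by the interaction term, a test added after the data were seen, and 11 of 312 genes passed (3.53%). For C4b the difference was -1.32 on the log2 scale (SE 0.241, edgeR adjusted p = 1.9e-05), from -0.19 at the surface and 1.08 in white matter. Its adjusted p was 0.14 without Young 1 and 0.12 without Aged 2. For Vim the difference was -0.71 and did not pass (adjusted p = 0.0804). Of the 11 genes 5, Mag, Opalin, Mobp, Trf and Tspan2, are oligodendrocyte markers. Mag stood at 69.6 and 62.2 against 50.9 and 55.1 in white matter members and at 1.25 and 1.62 against 3.80 and 5.44 in surface members.

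Whether age changed Gfap-rich astrocytes otherwise than Gfap-poor ones was tested by the interaction of age and class. Of 368 genes 0 passed by edgeR (0%), 43 had an unadjusted p under 0.05, limma called 0 and DESeq2 called 3. For Il33 the age change in members minus that in Gfap-poor astrocytes was 0.63 on the log2 scale (SE 0.128, edgeR unadjusted p = 0.00102, adjusted p = 0.174). For C4b the difference was -0.21 (adjusted p = 0.648) and for Vim -0.14 (adjusted p = 0.718).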

How the data were processed

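Frozen brains had been cut into coronal sections of 10 µm and imaged with custom probes. The authors used MERLIN for decoding and deposited raw counts per gene and segmented cell, with no normalization. The authors also deposited each cell's volume and position, an imaging signal in µm, used as given. A deposited table of mean transcripts per cell was used only to check that the sections were read correctly. Sections were grouped by their titles, and labels inside the 2 young files carry other numbers than these titles. Kept cells, with at least 10 genes and 50 µm3, held 36035355 and 31172121 transcripts in the young and 18765491 and 29004185 in the aged sections.

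The members and gene lists were chosen with earlier results of these data known. Cell types around a cell were called from panel markers, since no annotation was used. Counts were summed per section and class (members held 187881 to 291326 transcripts a section) and tested with edgeR 4.0.16 (TMM, filterByExpr, quasi-likelihood, Benjamini-Hochberg) in R 4.3.3, with the section as a block where classes or zones were compared. The 13 genes of the rule were left out of all counts of calls. Each age comparison kept them in its totals. DESeq2 1.42.0, limma 3.58.1, total counts, no filter on low counts, stricter Gfap thresholds, leaving out mixed cells and leaving out each section were alternatives. Comparisons within the surface and other grey matter, and those between surface and white matter members, were added after seeing the data. Named genes were up to 12 higher and 12 lower with the largest fold change among those called, with at least 5 per 10000 in the higher group, plus a fixed list of 16. Some of these genes are not reported here. Two-sided exact permutation tests were used for shares and densities. The tests were tested on simulated data of the real depths, with 1 dispersion for all genes of a comparison. There limma called 92 unchanged genes in Gfap-rich against Gfap-poor astrocytes and 27 in the interaction of age and class. By edgeR these were 5 and 2. Replicate numbers did not pair the sections (correlation of deviations -0.068). Intervals cover counting error only. Gene positions are from the GENCODE annotation of GRCm38. Cells were counted and placed with Python 3.11.15, scipy 1.17.1, pandas 2.3.3 and numpy 2.4.6.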

Additional observations from a re-analysis of the deposited data

Results flagged for a closer look

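The age change differed between Gfap-rich astrocytes of the surface and of white matter for 11 genes, by edgeR's interaction test with an adjusted p under 0.05. The values are the age change at the surface minus that in white matter, on the log2 scale. C4b had -1.32, the filament synemin (Synm) -1.23, the glutamine transporter Slc38a1 -1.06 and Aldh1a2, which is also a meningeal fibroblast marker, 1.57. Oligodendrocyte markers had 1.88 (Mag), 2.54 (Opalin), 1.13 (Tspan2), 1.03 (Mobp) and 0.97 (Trf). Neuronatin (Nnat) had -1.49, and smooth muscle actin (Acta2) -2.27. Acta2 stood at 1.20, 0.898 and 0.522 in white matter members of Young 1, Young 2 and Aged 1 and at 9.37 in Aged 2. Without mixed cells 3 genes passed, and without Young 1 or without Aged 2 none of the genes passed by edgeR.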

How the results depend on the processing

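The age change over all members was 4 genes by edgeR, 1 by DESeq2, 2 by limma, 2 with total counts, 2 with the replicate number as a block (a number that does not pair the sections), 0 without a filter on low counts, 0 in members with no neuroblast marker, 0 with the rule's genes left out, 8 in white matter, 0 at the surface and 0 to 8 when each section was left out. Meg3 reversed to -0.063 and -0.90 with neuroblast marker or mixed cells left out. In white matter the age change was 8 genes, 2 by DESeq2, 4 by limma, 0 without a filter, 0 without mixed cells and 1 to 23 without each section. At the surface it was 1 without mixed cells and 0 to 5 without each section. In other grey matter it was 1 by DESeq2, 1 by limma, 10 without mixed cells and 0 to 7 without each section. The interaction of age and class called 3 genes by DESeq2, 1 with Gfap of at least 6 counts and 3%, 3 with no neuroblast marker and 0 to 3 without each section. Gfap-rich against Gfap-poor astrocytes gave 12 genes in white matter, 21 there without a filter and 3 to 17 there without each section. Fn1 reversed to -0.15 and Synm to -0.53 in white matter, and Apoe to -0.19, Clu to -0.88, Hopx to -0.86 and Penk to 0.24 at the surface. Surface against white matter members gave 103 genes without mixed cells. The interaction of age and zone gave 3 genes by DESeq2, 6 without a filter, 3 without mixed cells and 0 to 5 without each section, with Trf reversed to -0.90 and Tspan2 to -0.29 without mixed cells and Acta2 between -3.42 and 0.66 without each section, with 0.66 without Aged 2. The surface excess of members was 34.3 points with the stricter Gfap threshold, the white matter excess 18.7 at 50% oligodendrocyte-like neighbours, the striatal deficit -16.7 without mixed cells and the wall excess 0.418 with neighbours within 150 µm. The aged minus young share of astrocytes was 0.65 points with no neuroblast marker. The density difference was -14.2 per mm2 in white matter without mixed cells, and at the ventricular wall, which the report leaves out by age, -1.42 as set there, 14.6 with the stricter threshold and -58.0 with neighbours within 150 µm. The causes of these moves were not tested. Of the other alternative values, 154 of the counts, shares and densities stayed near their reported value. Among single genes and zone shares 1747 values stayed on their side of the threshold or near their reported value, some with the other sign in genes not called (21 over all members by age, 11 in the interaction of age and class and 3 in Gfap-rich against Gfap-poor astrocytes), 194 lost the threshold, 8 gained it, 2 moved and 11 reversed, all 11 given above. Depth limits genes under about 5 per 10000, and 2 sections an age limit every age comparison.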
